A study of Mus musculus with 6 samples.

Results

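Eomes, Lmx1a and Calb2 mark unipolar brush cells, excitatory interneurons of the granular layer of the cerebellum, and their transcripts were followed in RNA from the whole cerebellum. The 3 genes were picked by name and chosen from results of the same comparison of genotypes, with the measured levels of Lmx1a and of the choroid plexus gene Ttr in view, so their own differences between genotypes are a description without a test. They are 3 of 55098 genes in the table, and all 3 were among the 17142 with enough counts to be tested. The groups were 3 wild-type (WT) male mice (animals 1, 3 and 5) and 3 male mice labelled as lacking Slc39a14 (KO; animals 2, 4 and 6), all at postnatal day 60. Slc39a14 encodes the metal transporter ZIP14, and the title of the series names the mouse a model of dystonia and parkinsonism that manganese induces from childhood on. Each animal gave 1 library. The sources used here do not give the strain, the exact allele or the tissue in which the gene is lost.

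Unipolar brush cells receive a mossy fibre ending on a brush-like dendrite, which prolongs the incoming signal, and pass it to granule cells. They arise from the rhombic lip and are dense in the vestibular lobules. Eomes (also called Tbr2) is a T-box transcription factor that the cells keep into adulthood. Lmx1a is a LIM-homeodomain transcription factor of the roof plate and rhombic lip that stays on in brush cells and is also made in the choroid plexus, the tissue that secretes cerebrospinal fluid and lies against the cerebellum. Calb2 encodes calretinin, a calcium-binding protein of one class of brush cells, and granule cells make it as well. In RNA from whole tissue, fewer cells of a type and less RNA per cell cannot be told apart, and a transcript shared by several cell types cannot be assigned to one of them.

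The libraries held 13805997 to 15788135 gene counts, so that 1 count was worth 0.0629 to 0.0733 CPM (counts scaled to the library total and normalized between libraries). Slc39a14 itself averaged 42.4 ± 1.33 CPM across WT animals and 42.3 ± 3.18 CPM across KO animals (SD, n = 3 each), so its transcript did not check the genotype labels. KO 4 stood apart in several genes described below, and WT 5 had the lowest level of 21 of 24 tested choroid plexus genes. SDs here measure the spread between animals, and p-values set the difference between genotypes against an estimate of that spread.

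The start regions of the 2 transcription factors are shown because the group means of Lmx1a and Eomes differed in opposite directions. Each run is the 250 bases before the RefSeq start in GRCm38.p6, on the plus strand, 5′ to 3′. Capitals mark ATTA, the core that homeodomain proteins read, and TATAA, the core of a TATA box, on either strand. The table of start regions held 2 of the 3 genes.
Lmx1a, chr1:167689308-167689557: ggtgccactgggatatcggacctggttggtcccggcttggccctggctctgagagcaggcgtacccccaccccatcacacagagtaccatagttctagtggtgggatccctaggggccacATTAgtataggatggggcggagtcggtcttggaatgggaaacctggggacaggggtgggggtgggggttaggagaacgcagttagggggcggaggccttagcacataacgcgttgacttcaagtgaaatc
Eomes, chr9:118477939-118478188: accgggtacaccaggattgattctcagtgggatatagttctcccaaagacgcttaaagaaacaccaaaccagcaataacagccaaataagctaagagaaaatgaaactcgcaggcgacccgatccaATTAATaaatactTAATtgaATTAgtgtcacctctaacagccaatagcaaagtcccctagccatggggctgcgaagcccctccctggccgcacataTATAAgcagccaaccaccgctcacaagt

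The Eomes window held 4 ATTA matches, some of them overlapping, the first at base -124 from the start, and 1 TATAA match at base -28. The Lmx1a window held 1 ATTA match, at base -130, and no TATAA. Among 32817 windows of the same length, 54.9% held ATTA and 22.8% held TATAA. The longer homeodomain site TAATTA was in neither window (4.85% of all windows). The same was true of the T-box core GGTGTG (16.3%) and of GGATTA, a site read by Otx factors that itself contains ATTA (6.25%). The GC content was 59.2% for Lmx1a and 46.4% for Eomes, against a median of 52.4%. In the GENCODE M21 annotation the Lmx1a window lies in the first intron of the transcript Lmx1a-202 and ends on the first base of Lmx1a-201, and no annotated transcript overlaps the Eomes window.

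Lmx1a was the rarest of the 3 transcripts and the one whose genotypes did not overlap. The gene (ENSMUSG00000026686, chromosome 1, 167689237 to 167848741, plus strand) counted 11, 18 and 8 in WT 1, 3 and 5. It had 29, 50 and 26 counts in KO 2, 4 and 6. KO 4 was the highest library, KO 2 and KO 6 lay close together, and the lowest KO library exceeded the highest WT library. Of all genes tested, 3.58% had every KO library above every WT library and 3.68% had every one below. The rule used this contrast, so nothing is read from that separation.

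In CPM, Lmx1a was at 0.798, 1.149 and 0.587 in WT 1, 3 and 5. KO 2, 4 and 6 had 1.82, 3.49 and 1.87 CPM. The mean of the WT animals was 0.845 ± 0.284 CPM and that of the KO animals 2.39 ± 0.9503 CPM (SD, n = 3 each). The log2 fold change, KO minus WT, was 1.48 (SE 0.41). Summed over libraries, the ratio of KO to WT was 2.77, with an exact 95% interval of 1.89 to 4.14 that covers counting error only. The size of the difference rested partly on the libraries at the extremes: leaving out both WT 5 and KO 4 gave a log2 fold change of 0.91.

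Eomes, the gene most used to identify unipolar brush cells, was at a lower mean in KO with overlapping groups. It lies on chromosome 9 (ENSMUSG00000032446, 118478212 to 118486132, plus strand) and was at 64.1, 52.0 and 70.9 CPM in WT 1, 3 and 5. In KO 2, 4 and 6 it was at 32.8, 49.3 and 62.0 CPM. KO 2 and KO 4 lay below all WT libraries, while KO 6 lay above WT 3 and close to WT 1. The WT mean was 62.3 ± 9.58 CPM against a KO mean of 48.0 ± 14.6 CPM (SD, n = 3 each), a log2 fold change of -0.38 (SE 0.21). That value depended on single libraries: it was -0.16 without KO 2, which had 521 counts, and -0.60 without KO 6. The noncoding gene Gm33460 overlaps Eomes on the opposite strand, with 40 counts over all libraries against 2665 in WT and 2090 in KO for Eomes. The sources used here do not say whether counting used the strand, so reads of the overlap cannot be told apart.

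Calb2 was the most abundant of the 3 and the steadiest between libraries. On chromosome 8 (ENSMUSG00000003657, 110137502 to 110168210, minus strand), it was at 310, 314 and 259 CPM in WT 1, 3 and 5. In KO 2, 4 and 6 it was at 296, 222 and 256 CPM. WT 5 lay beside KO 6 and below KO 2, so the groups overlapped, and KO 4 was the lowest library. The WT mean was 294 ± 30.7 CPM against a KO mean of 258 ± 37.2 CPM (SD, n = 3 each), a log2 fold change of -0.19 (SE 0.12). It was -0.09 without KO 4 and -0.30 without KO 2.

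**Figure D1:**
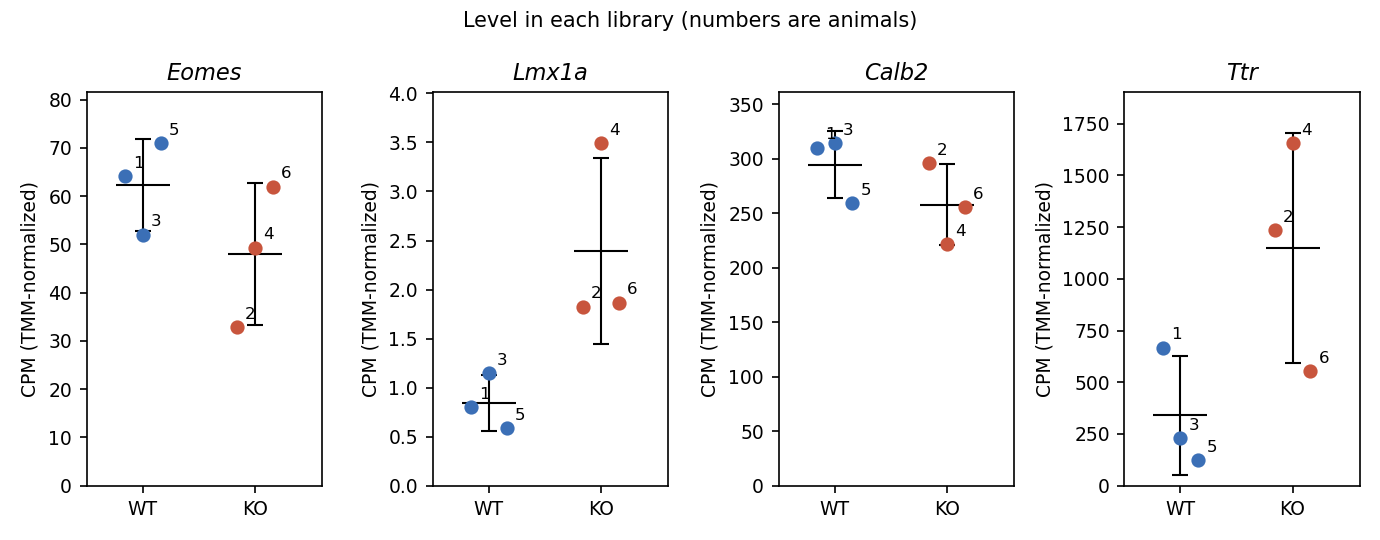
Level of Eomes, Lmx1a, Calb2 and Ttr in CPM (vertical axes, from 0) in 3 WT (blue) and 3 KO (red) libraries, numbered by animal, with the group mean and SD as bars. Lmx1a separates the genotypes (0.587 to 1.149 CPM in WT, 1.82 to 3.49 in KO), while the groups of Eomes, Calb2 and Ttr overlap.

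Of the 3 genes, 0 passed the edgeR quasi-likelihood test over all genes at a Benjamini-Hochberg adjusted p under 0.05. Of all tested genes 0.0467% were called higher in KO and 0% were called lower. In the same fit 289 genes were higher and 182 lower at an unadjusted p under 0.05, and DESeq2 called 35 higher and 3 lower. In the authors' deposited table the log2 fold changes of Lmx1a, Eomes and Calb2 were 1.49, -0.38 and -0.19.

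Per length, the order of the 3 genes was the same in each library. The deposited FPKM (counts scaled by gene length and library total) of Calb2 was 162 ± 16.04 in WT and 140 ± 19.95 in KO. That of Eomes was 14.4 ± 2.26 in WT and 10.97 ± 3.36 in KO. Lmx1a was at 0.238 ± 0.0793 in WT and 0.669 ± 0.266 in KO (SD, n = 3 each). No 2 of these levels overlapped in any library: Calb2 exceeded Eomes by 8.71 to 21.5 times, and Eomes exceeded Lmx1a by 11.5 to 98.8 times. The ratio of Eomes to Lmx1a was 37.0 to 98.8 in WT and 11.5 to 27.1 in KO. It contains the Lmx1a values known when the genes were chosen, at 8 to 50 counts per library, so nothing is read from its separation.

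The Lmx1a level was set beside Ttr, which encodes transthyretin and is among the most abundant transcripts of choroid plexus epithelium. Ttr had 667, 229 and 123 CPM in WT 1, 3 and 5. KO 2, 4 and 6 had 1236, 1655 and 554 CPM. KO 4 was highest and WT 5 lowest in both genes. The libraries in between were ordered differently, because WT 1 lay above KO 6 in Ttr and below WT 3 in Lmx1a. Over the 6 libraries the log2 levels of the 2 genes had a Pearson r of 0.80 and a Spearman rho of 0.71. Without WT 5 and KO 4, the libraries farthest from the median of Ttr, r was 0.35. Leaving out the extremes narrows the range and can lower r by itself, so nothing is read from that drop. The pair was chosen with these values known, and r is a description.

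Lmx1a counts per 1000 Ttr counts were 1.20, 5.01 and 4.77 in WT 1, 3 and 5 and 1.48, 2.11 and 3.37 in KO 2, 4 and 6. The ratio was thus 3.66 ± 2.14 in WT and 2.32 ± 0.963 in KO (SD, n = 3 each). WT 1 and KO 2 were both low and the groups overlapped. The exact 95% counting intervals ran from 0.597 to 2.14 in WT 1 and from 2.96 to 7.93 in WT 3, so 2 libraries of the same genotype differed in this ratio by more than counting error.

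**Figure D2:**
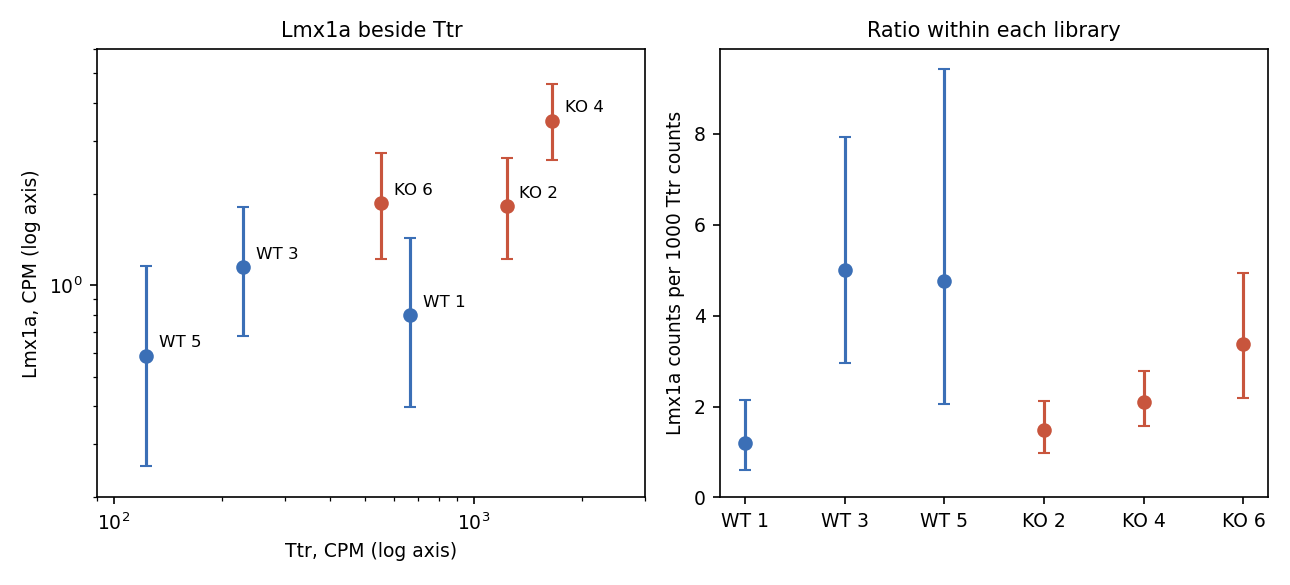
Left, Lmx1a against Ttr in CPM on log axes, 1 point per library (blue WT, red KO) with exact 95% counting intervals. Right, Lmx1a counts per 1000 Ttr counts with the same kind of interval. WT 1 and KO 6, a pair picked after the values were seen, lie close in Ttr (667 and 554 CPM) and apart in Lmx1a (0.798 and 1.87 CPM). KO 4 is highest and WT 5 lowest in both genes, and the ratios of the genotypes overlap.

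The pair WT 1 and KO 6, picked after the values were seen, had close levels of Ttr and crossed the genotypes. KO 6 had 0.831 times the Ttr of WT 1, and all 24 tested choroid plexus genes were lower in KO 6 than in WT 1 (0.501 to 0.969 times, median 0.752). Lmx1a was 2.34 times as high in KO 6 as in WT 1, with an exact 95% counting interval of 1.12 to 5.24. Between WT 3 and WT 1, all 24 choroid plexus genes were lower in WT 3, with Ttr at 0.344 times. There Lmx1a was 1.44 times as high, with an interval of 0.643 to 3.37 that includes no difference. Within KO, KO 6 had 0.448 times the Ttr of KO 2 and 1.02 times its Lmx1a (interval 0.579 to 1.80). KO 4 had 1.34 times the Ttr of KO 2 and 1.91 times its Lmx1a (interval 1.19 to 3.14). All 4 pairs were picked after the values were seen and are set against WT 1 or KO 2, the libraries with the lowest Lmx1a per Ttr count, so no order of the Lmx1a and Ttr ratios is read from them. Between the extreme libraries, WT 5 and KO 4, the order was the reverse, with Lmx1a 5.95 times and Ttr 13.5 times as high in KO 4.

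The choroid plexus list held 25 genes, of which 24 were tested and 0 called, and no gene of the list was without counts. The log2 fold changes of all 24 were above 0 and had a median of 1.29, against 48.8% positive and a median of -0.004 over all genes tested. Its summed level was 507 to 1538 CPM in WT and 1184 to 3596 CPM in KO, which overlap. None of the 24 had every KO library above every WT library. The log2 fold change of Lmx1a, 1.48, was exceeded by 8 of the 24, and r between Lmx1a and the 24 genes ran from 0.67 (Calml4) to 0.89 (Ace), with a median of 0.79, over the same 6 libraries. Without the 2 libraries farthest from the median of each gene, r ran from -0.24 (Steap1) to 0.55 (Sostdc1). The narrower range can lower r by itself, so nothing is read from these drops either. Enpp2, which encodes autotaxin and is abundant in this tissue, had a log2 fold change of 1.16 (SE 0.40). For Ttr it was 1.76 (SE 0.56; edgeR adjusted p = 1.0 for both), and 2.70 without WT 1. The part of choroid plexus RNA in the Lmx1a difference was not tested.

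Other markers of unipolar brush cells had small differences in both directions. The list, without the 3 genes, included receptor and signalling genes (Grm2, Plcb1, Plcb4, Homer3, Kcnj6), the actin regulator Eps8, the vesicular glutamate transporters Slc17a6 and Slc17a7 and the peptide gene Grp. Of 11 genes 10 were tested, 0 were called, 4 were positive and 6 negative, with a median log2 fold change of -0.03. Their differences ran from -0.40 to 0.07, all below that of Lmx1a.

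Plcb4 encodes a phospholipase that acts downstream of glutamate receptors. It averaged 393 ± 31.3 CPM (WT) and 389 ± 39.4 CPM (KO), a log2 fold change of -0.02 (SE 0.11). Homer3, a scaffold protein of the postsynaptic density, averaged 158.5 ± 20.7 and 166.5 ± 23.97 CPM (0.07, SE 0.13; SD, n = 3 each). Both genes differed by less than the SD within a group. Purkinje cells also make them, at high levels, so these levels cannot be assigned to brush cells.

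On the side of the brush cells inhibited by glutamate, Grm2 encodes mGluR2, which opens potassium channels that include the Kcnj6 subunit. Grm2 averaged 21.8 ± 4.43 CPM (WT) and 19.4 ± 2.83 CPM (KO), a log2 fold change of -0.17 (SE 0.18). Kcnj6 was at 18.2 ± 2.27 and 16.6 ± 0.940 CPM (-0.14, SE 0.14). Plcb1 was at 69.5 ± 5.33 and 71.97 ± 18.6 CPM (0.05, SE 0.16; SD, n = 3 each). Golgi cells also make Grm2. For Eps8, an actin regulator found in brush cell dendrites, the KO libraries all lay below the WT libraries (127 ± 6.23 against 115 ± 3.51 CPM), as in 3.68% of all genes tested. The log2 fold change of Eps8 was -0.15 (SE 0.09), with an edgeR adjusted p of 1.0.

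Slc17a6, the transporter VGLUT2, had the largest difference of the list (60.9 ± 13.3 against 46.0 ± 19.2 CPM; log2 fold change -0.40, SE 0.27). Its counts were 701, 875 and 1036 in WT 1, 3 and 5, beside 1063, 417 and 585 in KO 2, 4 and 6. The groups overlapped, with KO 2 among the high libraries and KO 4 the lowest. The source of Slc17a6 in whole tissue was not tested, so its level is not assigned to brush cells. Slc17a7, the transporter VGLUT1, was at 460 ± 84.5 and 449.6 ± 75.6 CPM (-0.03, SE 0.16; SD, n = 3 each). It is also in the list of granule cell markers, so its level cannot be assigned to brush cells. Grp had 7 to 12 counts in each library and was not tested.

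**Figure D3:**
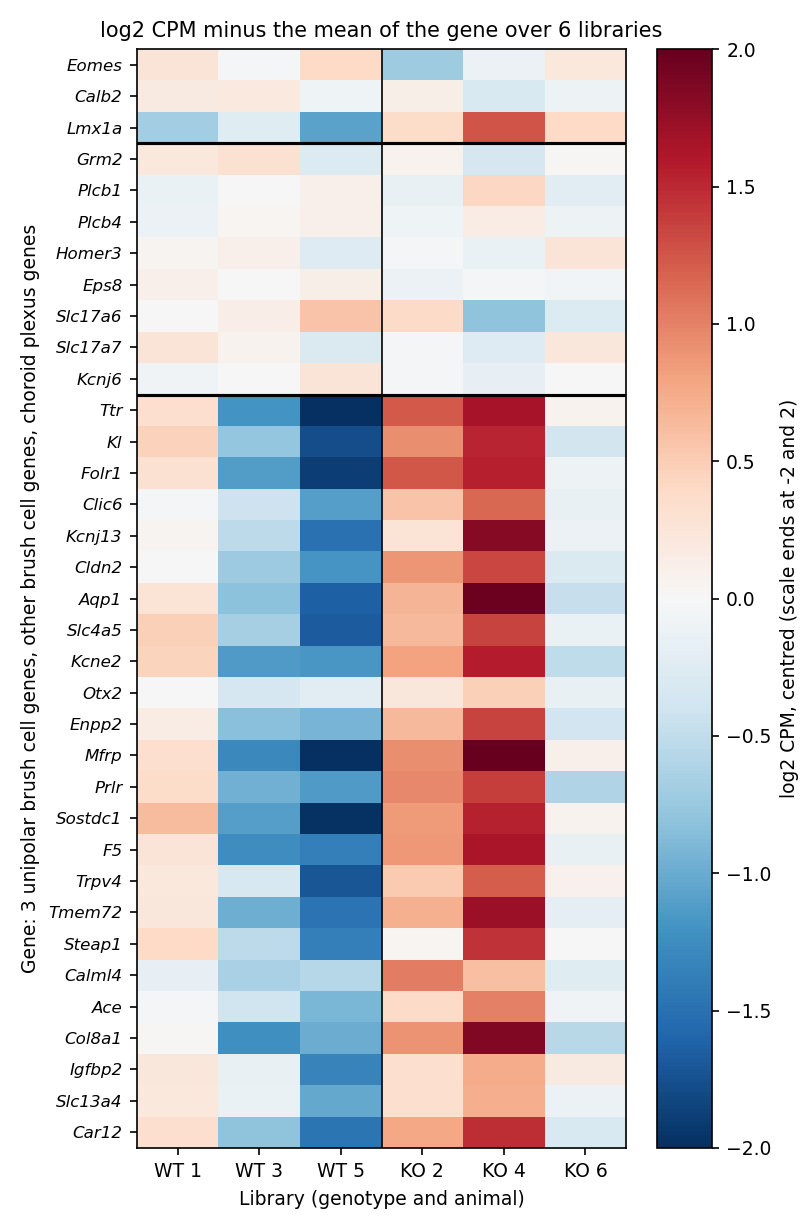
Log2 CPM of each gene (rows) minus its mean over the 6 libraries (columns; WT left, KO right of the line), red above and blue below the mean. Top, the 3 unipolar brush cell genes; middle, 8 other brush cell genes; bottom, 24 choroid plexus genes. KO 4 is highest in Lmx1a and in 23 of the 24 choroid plexus genes, and WT 5 is lowest in Lmx1a and in 21 of them. Lmx1a is lower in WT 1 than in KO 6, where the choroid plexus genes have the reverse order, a pair picked after the values were seen.

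Of 12 genes of the rhombic lip lineage, which gives rise to brush cells and granule cells, 8 were tested and 0 called, with 3 positive, 5 negative and a median of -0.002. Atoh1, which specifies the lineage in the embryo, had no count in any library. Zic1, a zinc finger factor of granule cells, had a log2 fold change of -0.11 (SE 0.10). Its KO libraries all lay below the WT libraries, as in 3.68% of all genes tested. Neurod1, which drives granule cell differentiation, was at -0.22 (SE 0.11; edgeR adjusted p = 1.0 for both). Mki67, a proliferation marker, had 5 to 19 counts. Of 10 roof plate genes, where Lmx1a acts in the embryo, 6 were tested, 5 were positive and 0 were called, with a median of 0.07. Wnt3a had no count in any library. In that list Gdf10, also a marker of Bergmann glia, was at 0.06 (SE 0.15).

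Granule cells, a source of Calb2, were described by 15 markers, all tested, with 0 called. Of these 14 were negative and 1 positive, with a median of -0.08 and a range from -0.22 to 0.01. Over all genes tested 48.8% were positive. The summed level of the 15 markers was 10127 to 10642 CPM in WT and 9567 to 9922 CPM in KO, and these ranges did not overlap. Singly, 2 of the 15 had every KO library below every WT library, a pattern found in 3.68% of all genes tested. The sum weighs abundant genes most, and nothing is read from its separation. The 2 most abundant markers were Snap25 (log2 fold change -0.04, SE 0.10) and the synaptic organizer Cbln3 (-0.09, SE 0.09). Snap25 is a synaptic vesicle fusion protein that is not particular to granule cells, and it enters the summed level. The log2 fold change of Calb2 (-0.19) lay within the range of the granule cell markers and below their median. Over the 6 libraries r of Calb2 with the granule cell genes Grin2c, Cbln1 and Gabra6 was 0.73, 0.69 and -0.04, with rho of 0.66, 0.71 and -0.03. Without the 2 libraries farthest from the median of each gene, r was 0.20, 0.15 and 0.31. What granule cells contribute to the Calb2 level was not tested.

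**Figure D4:**
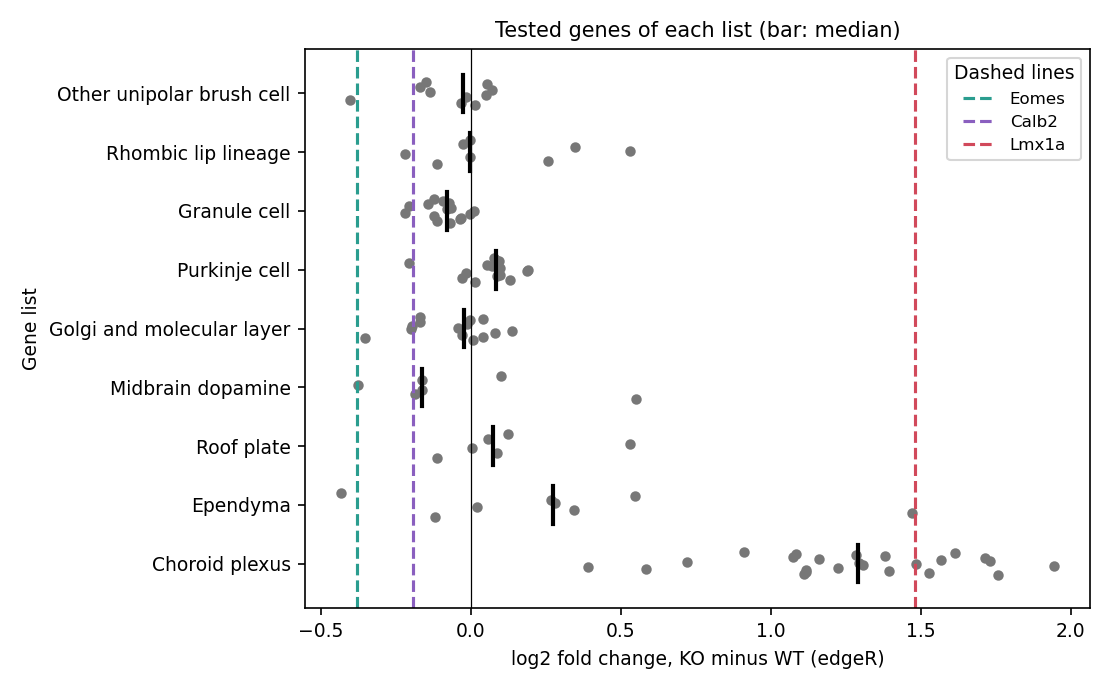
Log2 fold change, KO minus WT (horizontal axis), of each tested gene (points) in 9 gene lists (rows), with the median of the list as a bar and Eomes, Calb2 and Lmx1a as dashed lines. The other brush cell genes lie between -0.40 and 0.07, and the choroid plexus genes, around a median of 1.29, surround the line of Lmx1a at 1.48.

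Other cells that make these factors were examined. Eomes is also a factor of cytotoxic T cells and natural killer cells, whose 18 markers had 7 to 43 counts in all per library (0.508 to 3.15 CPM in WT and 1.07 to 2.44 CPM in KO), too few for any to be tested. Cd3e, which defines T cells, had 6 counts in WT 5 and 0 in the other libraries. Ncr1, which defines natural killer cells, had 1 count in KO 4 and 0 elsewhere. The chemokine gene Ccl5, named after its values were seen, counted 0, 0 and 3 in WT 1, 3 and 5, beside 10, 9 and 21 in KO 2, 4 and 6. The Eomes level was 32.8 to 70.9 CPM and the marker sums were at most 3.15 CPM. The part of such cells in the Eomes level was not tested. Lmx1a is also a factor of midbrain dopamine neurons. Among 11 of their genes Foxa1 and Foxa2 had no count, Slc6a3, the dopamine transporter, had 0 to 2 counts and Pitx3 0 to 2. The 6 tested had a median of -0.16, with Aldh1a1 (also made by glia) at 0.10 (SE 0.11), the orphan receptor Nr4a2 at -0.16 (SE 0.26) and 0 called. Th, which encodes the rate-limiting enzyme of dopamine synthesis, had the highest value of the list, 0.55 (SE 0.28; edgeR adjusted p = 1.0). It counted 70, 76 and 34 in WT 1, 3 and 5, beside 110, 90 and 70 in KO 2, 4 and 6, and its groups overlapped in CPM. The part of such neurons in the Lmx1a difference was not tested.

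Of 10 markers of ependyma, the ciliated lining next to the choroid plexus, 8 were tested and 0 called. Their median was 0.27, with a summed level of 13.9 to 22.6 CPM in WT and 19.5 to 23.8 CPM in KO. Foxj1, the regulator of motile cilia, was at 0.28 (SE 0.27), and Rarres2 at 0.02 (SE 0.33). Of 11 brainstem and Hox genes, which would mark tissue from behind the cerebellum, 3 (Hoxb3, Hoxa5 and Hoxb5) had no count. Purkinje cell markers (15 tested, 12 positive, median 0.08; Itpr1 at 0.10 and Aldoc at 0.08) had 0 called. Golgi cell and molecular layer interneuron markers (14 tested, 5 positive, median -0.02; Gad1 at 0.04 and Kit at -0.01) also had 0 called.

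Within their gene families the 3 genes held different places. By its mean FPKM in WT, Eomes was the most abundant of 17 T-box genes, ahead of Mga, a broadly expressed factor that dimerizes with Max (10.7 ± 1.32 FPKM in WT and 10.6 ± 0.983 in KO). The levels of Eomes and Mga overlapped in both genotypes, with Mga higher in KO 2 and KO 4. Tbx6 followed at 1.38 ± 0.349 and 1.51 ± 0.546 FPKM (SD, n = 3 each), and Tbx5, Tbx10, Tbx19 and Tbx20 had no count. Tbr1, a factor of cerebellar nuclei and of forebrain neurons, had 6, 15 and 3 counts in WT 1, 3 and 5, beside 10, 79 and 6 in KO 2, 4 and 6. It is named after its values were seen, since KO 4, the library with most Lmx1a, stood far above the rest in it.

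Lmx1a was number 5 of 12 LIM-homeodomain genes in WT. The family was led by Lhx1, a factor of Purkinje cells (15.2 ± 1.28 FPKM in WT and 14.3 ± 1.41 in KO), and by Lhx5 (6.51 ± 1.55 and 6.24 ± 2.15 FPKM). Lhx9 was at 1.146 ± 0.215 and 0.747 ± 0.563 FPKM (SD, n = 3 each). Its counts were 127 to 192 in 5 libraries and 17 in KO 4, so that KO 4 stood apart here as well, on the low side. The paralog Lmx1b had 1 to 11 counts and was not tested. Of the 5 tested genes of the family 2 were positive, with a median of -0.05, and 0 were called.

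Calb2 was number 3 of 9 calcium-binding protein genes, behind Pvalb, which encodes parvalbumin (396 ± 22.8 FPKM in WT and 416 ± 34.8 in KO), and Calb1, which encodes the Purkinje cell protein calbindin (171 ± 23.9 and 179 ± 29.5 FPKM; SD, n = 3 each). The levels of Calb1 and Calb2 overlapped in both genotypes. Calb1 and Pvalb had log2 fold changes of 0.08 (SE 0.14) and 0.09 (SE 0.10), opposite in sign to Calb2, and each was smaller than its SE. Necab3 was at 11.5 ± 0.755 and 8.61 ± 1.37 FPKM (log2 fold change -0.40, SE 0.14; edgeR adjusted p = 1.0). Its KO libraries all lay below the WT libraries, as in 3.68% of all genes tested. Necab1 and Necab2 were at 3.48 ± 1.48 and 2.70 ± 1.152 FPKM in WT and at 4.71 ± 1.53 and 3.29 ± 0.472 in KO. Of the 6 tested genes 4 were positive, with 0 called.

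**Figure D5:**
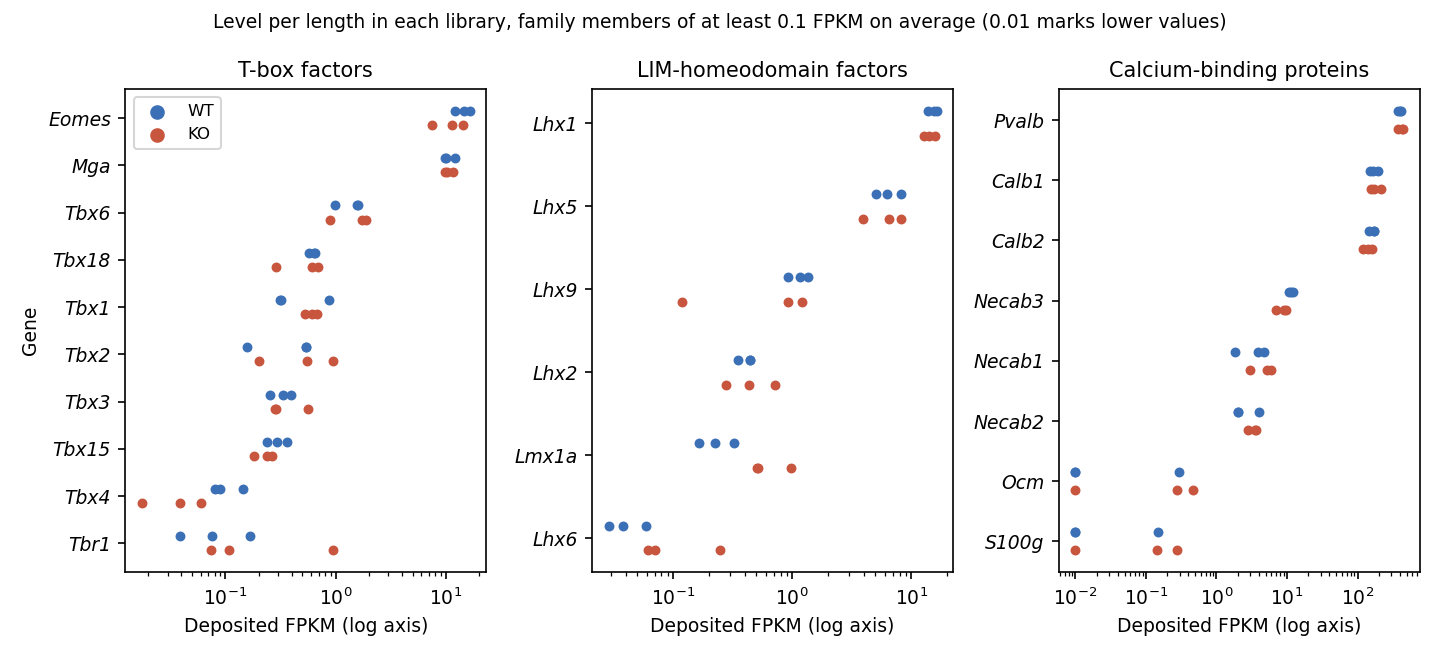
Deposited FPKM (log axes) of T-box, LIM-homeodomain and calcium-binding protein genes (rows, ordered by the WT mean), 1 point per library (blue WT above, red KO below). Eomes has the highest WT mean of its family (7.46 to 16.5 FPKM over all libraries) and overlaps Mga, Lmx1a is at 0.167 to 0.323 FPKM in WT, and Calb2 overlaps Calb1.

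The genes whose pattern over the 6 libraries was most like each of the 3 were sought among 13685 protein-coding genes of at least 1 CPM, by Pearson r of log2 CPM. For Eomes they were Srrm4, a splicing regulator of neurons (r 0.996, rho 1.0), Tspyl5 (0.988, 0.943), Ago2 (0.987, 1.0), Zfp398 (0.986, 0.943) and Pou6f1 (0.983, 0.943). Srrm4 reached 189, 162 and 198 CPM in WT 1, 3 and 5. It reached 114, 158 and 179 CPM in KO 2, 4 and 6, lowest in KO 2 as Eomes was. Its log2 fold change was -0.28 (SE 0.16).

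For Lmx1a the closest genes were Itpripl2 (r 0.986, rho 0.943), Sinhcaf (0.974, 1.0), Cpt2, a mitochondrial enzyme of fatty acid oxidation (0.974, 1.0), Clk2 (0.961, 0.943) and Ythdf2, which binds methylated RNA (0.960, 0.943). None of them is in the choroid plexus list, but few of the 13685 genes compared are, so nothing is read from that. Their differences were smaller than that of Lmx1a: Itpripl2 had a log2 fold change of 0.31 (SE 0.16), Sinhcaf 0.49 (SE 0.33) and Cpt2 0.31 (SE 0.17). For Calb2 they were Triobp, an actin-binding protein (r 0.983, rho 0.886), Nabp2 (0.980, 0.943), Slc16a13 (0.976, 0.943), Mmab (0.971, 1.0) and Cyp4f14 (0.971, 0.886). With 6 libraries and 13685 genes some high r values arise for any pattern: 23, 16 and 30 genes had r over 0.95 with Eomes, Lmx1a and Calb2. No gene was among the closest 5 of more than 1 of the 3.

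The 3 genes did not follow one another. Over the 6 libraries r was -0.55 (rho -0.71) between Lmx1a and Eomes, -0.57 (rho -0.60) between Lmx1a and Calb2 and -0.15 (rho 0.09) between Eomes and Calb2. Without the 2 libraries farthest from the median of the second gene of each pair these were -0.62, -0.03 and -0.43. KO 2 was the lowest library in Eomes, KO 4 the lowest in Calb2, and WT 5 the lowest in Lmx1a.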

How the data were processed

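RNA of whole cerebellum was extracted with TRIZOL and libraries were made by a company, per the labels' protocols. The submitters' processing notes list HISAT2, DESeq2 and GRCm38.p6. The sources used here do not give the counting program or its strand setting. The table as deposited has 1 raw count per gene and library. The deposited FPKM columns hold these per gene length and library total, by the authors. The authors' group means are a normalized signal, and their log2 fold changes and p-values compare KO with WT (deposited table). Start and end positions are as deposited.

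Genes were compared by edgeR 4.0.16 under R 4.3.3 (quasi-likelihood F test, TMM factors 0.990 to 1.01, filterByExpr by group, Benjamini-Hochberg over 17142 genes, calls at adjusted p under 0.05). Fold changes are KO minus WT, with SE taken as their size divided by the square root of the F statistic. Log2 CPM used a prior count of 2. Intervals on counts are exact (Poisson or conditional binomial, scipy 1.17.1) and cover counting error only. The test was checked on simulated data. Alternatives were DESeq2 1.42.0 and its size factors, no low-count filter, each library left out, and WT 5 and KO 4 left out. Start regions come from RefSeq (GRCm38.p6).

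The 3 genes and the 14 lists (190 entries, all in the table) were chosen with earlier results of these data known. Named genes were the 3 genes and Ttr, the called or else 2 most abundant tested genes of each list, the 5 most alike genes (mean of at least 1 CPM), and family members of at least 1 FPKM; others are named from small counts, as further genes of the brush cell list, or after their values were seen. Some genes of the lists enter the counts and are not reported here.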

Additional observations from a re-analysis of the deposited data

How the results depend on the processing

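The direction of the Eomes, Lmx1a and Calb2 differences was the same under all 10 alternatives. For Lmx1a, leaving libraries out could not reverse it, because the genotypes did not overlap in this gene. The groups of Eomes and Calb2 overlapped, so their direction was not fixed in this way. All 3 genes were chosen from results of the same comparison, so nothing is read from the constant direction. The log2 fold change ran from -0.60 (without KO 6) to -0.16 (without KO 2) for Eomes, from 0.91 to 1.78 (without WT 3) for Lmx1a and from -0.30 to -0.09 (without KO 4) for Calb2. Lmx1a moved by more than its spread between animals in 1 of them, to 0.91 with WT 5 and KO 4 both left out, where Ttr was at 1.00.

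The number of genes called higher in KO, 8, became 117 with no low-count filter, 35 with DESeq2 and 37 with WT 5 and KO 4 left out. With single libraries left out it ran from 0 (without WT 1 or WT 3) to 28 (without WT 5), with 2 without KO 2, 14 without KO 4 and 3 without KO 6. The number called lower, 0, became 25 with no low-count filter, 3 with DESeq2 and 3 with WT 5 and KO 4 left out, and ran from 0 to 3 (without KO 4) with single libraries left out. The cause was not tested. No paired analysis was possible because the animals of the groups share no number. Depth limits Lmx1a most, at 8 to 50 counts per library.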
